A study of Arabidopsis thaliana with 4 samples.

Results

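A set of 4 transcripts linked to phosphate starvation was far lower in Arabidopsis rosettes 5 h after a dexamethasone (DEX) spray than after a mock spray, at 11.2% to 29.0% of the mock level. They were followed with 4 ATH1 probe sets of 22746 that are not Affymetrix controls. An ATH1 probe set is a group of short oligonucleotides on the array whose signals are combined into 1 value for a transcript. Probe sets 262369_at and 258856_at were taken as those of AT1G73010 and AT3G02040. The platform annotation used here does not list either probe set, so that pairing was not checked against it. The other 2 were the probe sets whose 1 annotated gene is AT5G20790 (246001_at) or AT2G04460 (263851_at). All 4 passed the filter on dim probe sets, which 19883 probe sets passed in all. They were selected on their DEX-minus-mock differences on these same arrays, so their values are a description and carry no test.

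The series asks which genes change soon after ORS1, a NAC-family transcription factor that promotes leaf senescence, is switched on. All plants were in the C24 background, carried the inducible ORS1 overexpression construct and were 46 days old. Their day length was 16 h. The DEX group was sprayed with 30 µM DEX, and the mock group, carrying the same construct, with 0.05% ethanol. Whole rosettes were harvested after 5 h, and 2 arrays described as biological replicates were measured per group. Neither the promoter that drives the construct, nor the number of lines or of plants behind an array, nor the phosphate content of the soil is given in the sources used here. A group without the construct was not analysed here, so a response to DEX itself and a response to ORS1 cannot be told apart. The annotation used here pairs ORS1 with 0 probe sets, so its induction was not checked.

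The deposited values are log2 expression values made with GCRMA, so a difference of 1 is a 2-fold difference. Differences between dim probe sets may be understated. The 2 DEX arrays differed from each other by a median of 0.121 log2 units over the tested probe sets, and the 2 mock arrays by 0.232. Of the 10 leaf markers listed, photosynthesis genes such as RCA and LHCB4.1, 6 were tested, with log2 values of 11.5 to 13.4 on the 4 arrays, far above the filter level of 4. The root hair genes EXPA7 and EXPA18 were at 5.13 to 5.98, also above it, and 0 of 6 floral markers had a probe set with 1 gene. Levels of different probe sets are not comparable, so these values show only that leaf transcripts were detected, and do not set the share of any tissue. Of these 8 genes 0 passed the test between DEX and mock (limma; 0 at an unadjusted p under 0.05, where 8.78% of all tested probe sets were under it).

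Plants short of phosphate switch on a common set of genes under transcription factors of the PHR1 family, which are held back by SPX proteins while phosphate is plentiful. The set includes phosphate transporters, secreted and internal phosphatases, and enzymes that take phosphate out of membrane lipids. All 4 genes followed here are known for transcripts that accumulate in phosphate-starved Arabidopsis. AT1G73010 (PS2, also PPsPase1) encodes a phosphatase that acts on pyrophosphate. AT3G02040 (SRG3, also GDPD1) encodes a glycerophosphodiester phosphodiesterase, which releases glycerol-3-phosphate from the remains of degraded phospholipids. Its other RefSeq name is senescence-related gene 3. AT5G20790 is a protein-coding gene with no well known function. RefSeq (assembly TAIR10.1) lists AT2G04460 as a pseudogene. The genes lie on 4 different chromosomes: AT1G73010 on 1, AT2G04460 on 2, AT3G02040 on 3 and AT5G20790 on 5.

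Probe set 262369_at, taken as the pyrophosphatase gene AT1G73010, had log2 values of 4.92 and 5.00 on DEX replicates 1 and 2, against 8.06 and 8.17 on mock replicates 1 and 2. The groups lay far apart and each pair of arrays was tight. The DEX mean was 4.96 ± 0.050 and the mock mean 8.11 ± 0.082 (SD, n = 2 each), a log2 change of -3.15 ± 0.15 (SE of the fit over all probe sets), or 8.90-fold. This was the lowest change of all 19883 tested probe sets. Even the closest pair of DEX and mock arrays was 8.34-fold apart, and that gap was 26.5 times the larger difference between arrays of a group.

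Probe set 258856_at, taken as the phosphodiesterase gene AT3G02040, had values of 6.95 and 7.35 on the DEX arrays, against 9.96 and 9.90 on the mock arrays. The mock pair was tight, and DEX replicate 2 was higher than DEX replicate 1 by 0.41, a larger difference than on 95.2% of tested probe sets. The DEX mean was 7.15 ± 0.29 and the mock mean 9.93 ± 0.042 (SD, n = 2 each). The log2 change was -2.78 ± 0.21 (SE), or 6.87-fold, the third lowest of all. Both DEX values were still above the filter level of 4.

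AT2G04460, the pseudogene, had values of 5.75 and 5.60 on the DEX arrays, against 8.03 and 8.95 on the mock arrays. Here the DEX pair was the tight one, and mock replicate 2 was higher than mock replicate 1 by 0.92, more than on 97.6% of tested probe sets. The DEX mean was 5.68 ± 0.10 and the mock mean 8.49 ± 0.65 (SD, n = 2 each), a log2 change of -2.81 ± 0.28 (SE), or 7.03-fold and the second lowest. Set against mock replicate 1 alone, that is without mock replicate 2, the change was -2.35, and without mock replicate 1 it was -3.28. Whether the probes also bind RNA of related sequences elsewhere in the genome was not checked here.

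AT5G20790 had values of 4.82 and 4.65 on the DEX arrays, against 6.27 and 6.77 on the mock arrays. The groups did not overlap, but their gap was the smallest of the 4, with the closest DEX and mock arrays 2.73-fold apart. The DEX mean was 4.74 ± 0.12 and the mock mean 6.52 ± 0.36 (SD, n = 2 each). The log2 change was -1.78 ± 0.18 (SE), or 3.44-fold, which ranked 14 among the falls. As with AT2G04460, mock replicate 2 was the higher of its pair, by 0.50, and DEX replicate 2 the lower, by 0.17. The DEX values of AT5G20790, and those of 262369_at at 4.92 and 5.00, were the closest of the 4 to the filter level of 4. Differences that reach so dim a level may be understated.

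**Figure D1:**
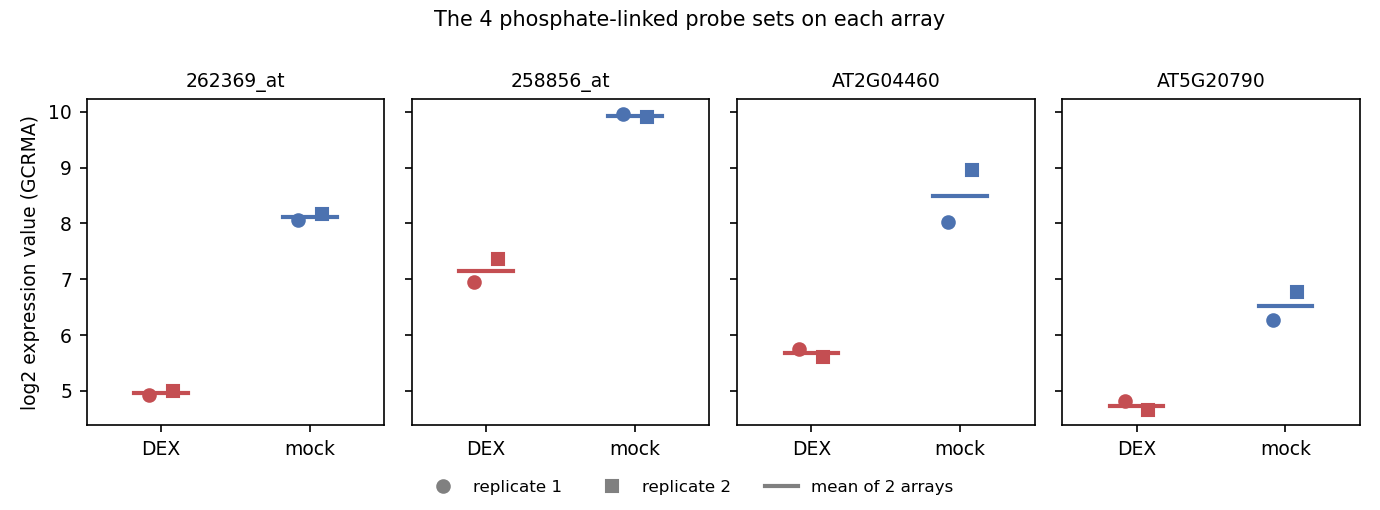
Log2 expression values (GCRMA) of the 4 phosphate-linked probe sets on the 2 DEX arrays (red) and the 2 mock arrays (blue). Circles are replicate 1, squares replicate 2 and lines the mean of 2 arrays. Both DEX arrays lie below both mock arrays in each panel, with the tightest DEX pair for 262369_at, the tightest mock pair for 258856_at and the widest mock pair for AT2G04460 (8.03 and 8.95).

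On all 4 probe sets both DEX arrays lay below both mock arrays, as they did on 19.8% of all tested probe sets. A gap of at least 1 log2 unit between the highest DEX and the lowest mock value, which all 4 had, was found on 31 probe sets, 0.156% of those tested. Since the 4 were picked for this contrast, these shares only place them. The next largest falls of other probe sets were those of 261409_at, 245928_s_at and 246071_at, which the annotation used here does not list, with log2 changes of -2.40, -2.11 and -2.07. They ranked below 258856_at at -2.78 and above AT5G20790 at -1.78.

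The 4 differed among themselves in which arrays spread. Taken within replicate number 1, DEX minus mock was -3.13 for 262369_at, -3.01 for 258856_at, -2.28 for AT2G04460 and -1.45 for AT5G20790. Within replicate number 2 it was -3.18, -2.55, -3.35 and -2.12 in the same order. The difference was thus about the same within both numbers for 262369_at, smaller within number 2 for 258856_at, and larger within number 2 for AT2G04460 and AT5G20790. The numbers are not known to pair the arrays.

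The likeness of the 4-array profiles was measured as the Euclidean distance between log2 values centred on each probe set's mean. The closest pair among the 4 was 262369_at with 258856_at, at 0.46, and the farthest 262369_at with AT5G20790, at 1.41. Measured from the mean profile of the 4, they lay at 0.43 (258856_at) to 0.87 (AT5G20790). Among other probe sets with 1 listed gene, the 5 nearest to that mean profile were in order AT3G28220, AT4G01390, JAL23, SWEET13 and AT1G54020, the last at a distance of 1.31. The log2 changes of the 5 other probe sets ran from -1.82 (JAL23) to -1.40 (AT1G54020), so each was smaller than those of 262369_at, AT2G04460 and 258856_at. These distances rest on 4 arrays.

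Differences between the mock arrays moved with gene length. For this, 11311 tested probe sets with 1 nuclear gene were put in 5 groups by the span of that gene in RefSeq. The median of mock replicate 2 minus mock replicate 1 was 0.25 for the shortest genes and -0.27 for the longest. The 4 genes are short, with spans of 1821 bp (AT1G73010), 1844 bp (AT3G02040), 1246 bp (AT5G20790) and 1462 bp (AT2G04460), and fall in the 2 shortest groups. In those groups the median DEX-minus-mock change was 0.10 and 0.073. Whether gene length bears on the falls of the 4 was not tested. With the length trend of each array removed, the 4 changes were -3.20 for 262369_at, -2.82 for 258856_at, -1.89 for AT5G20790 and -2.90 for AT2G04460, each slightly lower than before. The difference between the mock arrays then stood at 0.73 for AT2G04460 and 0.26 for AT5G20790.

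Genes near the 4 on the chromosome did not pass the test. Of the 24 loci within 3 places on either side in RefSeq order, 9 had a tested probe set with 1 gene and 0 passed (limma, smallest adjusted p = 0.595; 0 at an unadjusted p under 0.05). With 0.246% and 0.201% of all tested probe sets called higher and lower, and 8.78% at an unadjusted p under 0.05, 0 of 9 is near the common share. Their log2 changes ran from -0.11 (AT2G04480) to 0.26 (AT3G02010). AT1G73020, next to AT1G73010, was at -0.094 ± 0.17 (SE). It was the only directly adjacent locus with a tested value, so none was tested next to AT3G02040, AT5G20790 or AT2G04460. AT2G04440, near AT2G04460, was at 0.0045 ± 0.17.

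The other genes listed for a role in the phosphate starvation response did not pass where they could be measured. Of 137 listed genes besides the 4, 20 had a probe set with 1 gene, 19 were tested, and 0 were higher and 0 lower at an adjusted p under 0.05 (limma). Over all tested probe sets 0.246% were called higher and 0.201% lower, so even at the common rate no call would be usual in 19 genes. At an unadjusted p under 0.05 there was 1, WRKY6, where 8.78% of all tested probe sets were under it, so 1 of 19 is near the common share. The median log2 change of the 19 was -0.018, against -0.012 over all tested probe sets, and the 19 ran from -0.39 to 0.39. Both DEX arrays lay below both mock arrays for 5 of the 19 and above them for 1, where 19.8% and 18.1% of all tested probe sets did so. The SPX genes, PHR1, the PHT1 transporters, and the 29 listed genes of lipid remodelling and 3 of organic acid metabolism had no probe set with 1 gene here and were not analysed. Most of the 19 are genes of regulation or transport, and whether their own transcripts rise without phosphate was not checked. They therefore do not stand for the genes that were not measured.

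**Figure D2:**
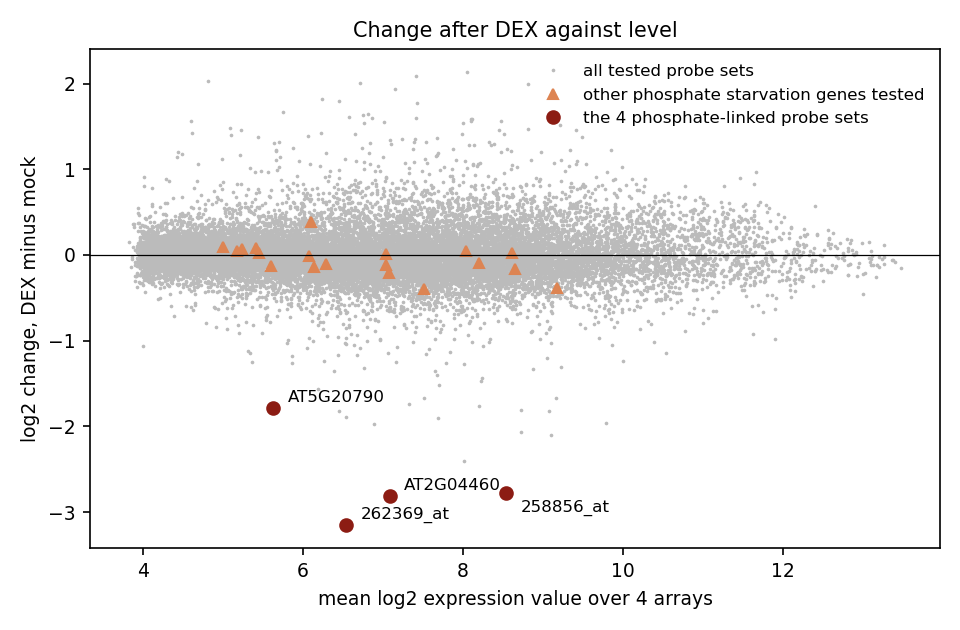
Log2 change (DEX minus mock) against the mean log2 expression value over 4 arrays for all 19883 tested probe sets (grey), the 19 tested genes of the phosphate starvation list (orange triangles) and the 4 phosphate-linked probe sets (dark red). The 19 lie between -0.39 and 0.39, and the 4 between -3.15 and -1.78.

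Of the 29 genes of sensing and regulation, 7 were tested. WRKY6, a transcription factor that represses the phosphate exporter gene PHO1, had log2 values of 6.32 and 6.28 on the DEX arrays, against 5.94 and 5.88 on the mock arrays. Its groups did not overlap, and its change of 0.39 ± 0.14 (SE) did not pass over all probe sets (limma adjusted p = 0.436). WRKY42, which also acts on PHO1, was at 0.047 ± 0.13. AT3G24120 (PHL2), a relative of PHR1, was at -0.12 ± 0.16, and the SUMO ligase gene SIZ1, whose product modifies PHR1, was at -0.091 ± 0.21. LPR1 and LPR2, oxidases known for stopping root growth at low phosphate, were at -0.14 and 0.018. AT5G15070 (VIH1), a kinase of the inositol pyrophosphates that SPX proteins bind, was at -0.018.

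Of the 40 transport genes, 8 were tested, 7 of them from the PHO1 family of membrane proteins with an SPX domain. AT1G63010 (PHT5;1), a transporter that stores phosphate in the vacuole, had values of 9.11 and 8.85 on the DEX arrays, against 9.54 and 9.19 on the mock arrays. The 2 groups did not overlap, but their gap was smaller than the difference within either pair, and the change of -0.38 ± 0.22 (SE) did not pass (limma adjusted p = 0.683). AT2G03240 (PHO1;H5) had values of 7.39 and 7.23 on the DEX arrays, against 7.88 and 7.53 on the mock arrays. Its change was -0.39 ± 0.20 (SE; limma adjusted p = 0.632). The 6 others of the PHO1 family, AT2G03260 (PHO1;H2), SHB1 (PHO1;H4), AT1G26730 (PHO1;H7), AT1G35350 (PHO1;H8), AT3G29060 (PHO1;H9) and AT1G69480 (PHO1;H10), lay between -0.13 (AT1G69480) and 0.090 (SHB1). Without mock replicate 2, AT1G63010 and AT2G03240 were called lower, at -0.56 and -0.57 (limma adjusted p = 0.0437 and 0.0377), in a fit that takes its spread from 1 pair of arrays. In that fit 6.98% of all tested probe sets were called lower, so 2 of 19 is near the common share.

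Of the 36 phosphatase and nuclease genes, 5 had a probe set and 4 were tested. AT4G29530, which encodes a phosphatase related to that of AT1G73010, had values of 7.03 and 6.90 on the DEX arrays, against 7.20 and 7.16 on the mock arrays. Its change of -0.22 ± 0.16 (SE) did not pass (limma adjusted p = 0.779). The difference of 262369_at in the same contrast was -3.15. The purple acid phosphatase genes AT1G13750 (PAP1) and AT1G25230 (PAP4) were at -0.17 ± 0.22 and 0.045 ± 0.19, and the acid phosphatase gene AT4G29260 at 0.0085 ± 0.22. PAP20, another purple acid phosphatase gene, missed the filter, with 4.02 and 3.89 on the DEX arrays, against 3.65 and 3.90 on the mock arrays.

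**Figure D3:**
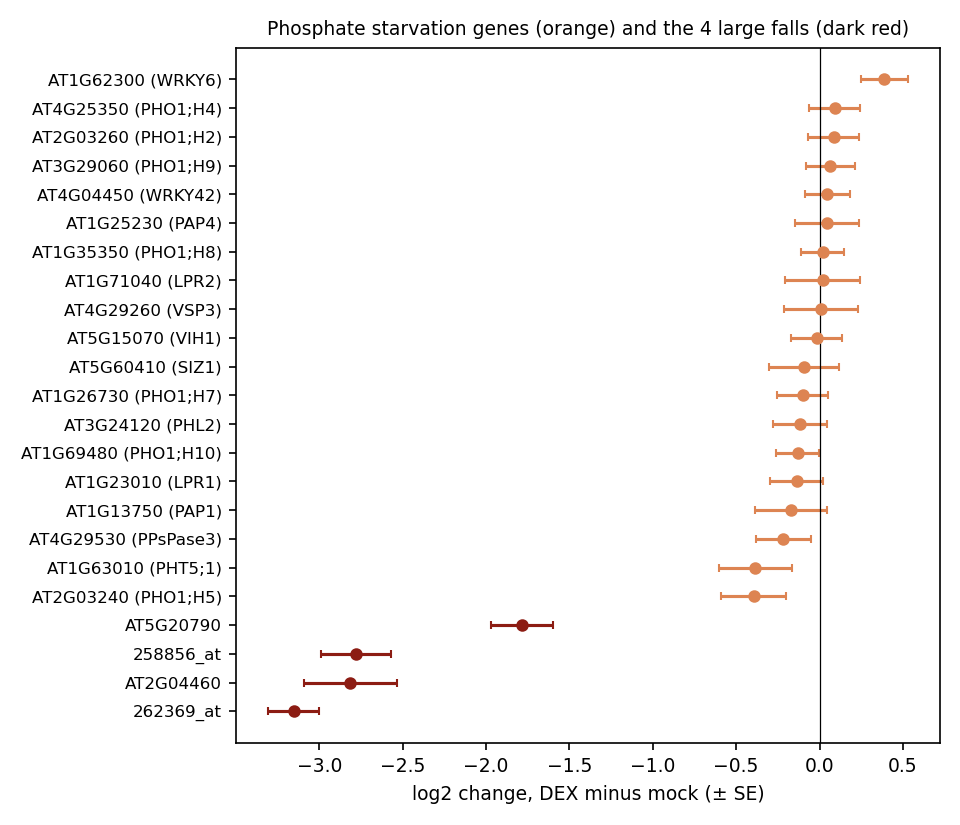
Log2 change (DEX minus mock) with its SE for the 19 tested genes of the phosphate starvation list (orange) and the 4 phosphate-linked probe sets (dark red). Names in brackets are those of the gene list. The 19 lie between -0.39 and 0.39, and the 4 at -1.78 or lower.

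Anthocyanin is the red leaf pigment that builds up in phosphate-starved leaves. Of its synthesis, only DFR and genes of transferases that add groups to anthocyanins or flavonols were measured. The listed genes without a tested probe set were not analysed. Of 32 listed genes 6 were tested, 1 was lower (DFR) and 0 were higher at an adjusted p under 0.05 (limma), where 0.201% of all tested probe sets were lower and 0.246% higher. Their median log2 change was -0.42, and 5 of the 6 changes were negative. Over all 19883 tested probe sets the median was -0.012, and 10502 changes were negative. DFR, which makes the colourless precursors of anthocyanins, had values of 6.50 and 6.48 on the DEX arrays, against 7.80 and 7.47 on the mock arrays. It fell by 1.15 on the log2 scale, with an SE of 0.18 (limma adjusted p = 0.0449). AT4G14090 (UGT75C1), a glucosyltransferase of anthocyanins, had values of 5.85 and 6.34 on the DEX arrays, against 7.27 and 7.27 on the mock arrays. Its change was as large, at -1.17 ± 0.19 (SE), and just missed the threshold (limma adjusted p = 0.0534).

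UF3GT (UGT79B1), which adds xylose to anthocyanins, had values of 6.49 and 6.52 on the DEX arrays, against 7.17 and 7.003 on the mock arrays. The groups did not overlap, and the change of -0.58 ± 0.16 (SE) did not pass (limma adjusted p = 0.252). The malonyltransferase gene AT5MAT, with a change of -0.26 ± 0.18, had overlapping groups. So had UGT78D2, which glucosylates both flavonols and anthocyanidins, at -0.088 ± 0.18. UGT78D1, which adds rhamnose to flavonols, was at 0.31 ± 0.17 and was the 1 positive change of the 6. The call of DFR was lost without DEX replicate 1 (limma adjusted p = 0.0996) and without DEX replicate 2 (0.0897), with changes of -1.16 and -1.14. With all 4 arrays it was also lost with no filter (limma adjusted p = 0.0629), without an intensity trend (0.0752) and with an unmoderated variance (0.73). It was kept with a stricter filter (limma adjusted p = 0.0396), quantile normalization (0.0413), equal array medians (0.0346), robust empirical Bayes (0.0276) or a replicate block (4.6e-06). AT4G14090, with all 4 arrays, passed with a stricter filter (limma adjusted p = 0.0463), equal array medians (0.0416), robust empirical Bayes (0.0311) or a replicate block (3.1e-07). It did not pass with quantile normalization (0.0591), no filter (0.0721), no intensity trend (0.103) or an unmoderated variance (0.746). With 1 array left out its change ran from -1.41 to -0.93, and that of UF3GT from -0.66 to -0.50.

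**Figure D4:**
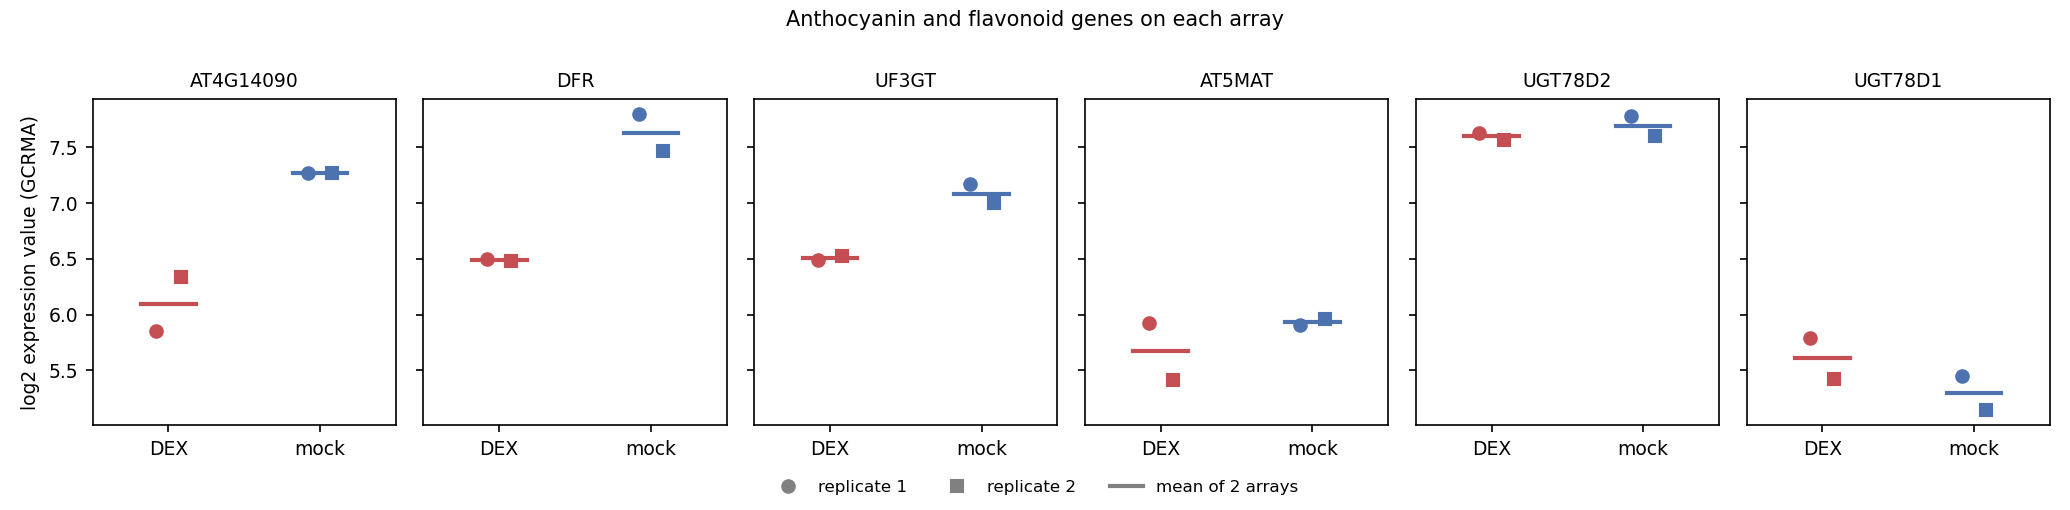
Log2 expression values (GCRMA) of the 6 tested anthocyanin and flavonoid genes on the 2 DEX arrays (red) and the 2 mock arrays (blue). Circles are replicate 1, squares replicate 2 and lines the mean of 2 arrays. The DEX arrays lie below the mock arrays for AT4G14090, DFR and UF3GT, as on 19.8% of all tested probe sets. The groups overlap for the other 3.

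Rosettes were measured whole, so fewer cells of a type and less RNA per cell cannot be told apart for any of these transcripts.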

How the data were processed

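RNA from whole rosettes was measured on 4 ATH1 arrays, 2 DEX and 2 mock. The deposited log2 values, 1 per probe set and array, were made with GCRMA per the submitters' processing notes (with no version or settings named). The log2 scale was taken from the values, 2.59 to 13.62. Array medians were 6.51 to 6.55. No further normalization was applied.

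Of 22810 probe sets, 64 controls were left out, and 2863 were removed because fewer than 2 arrays reached 4. For the 19883 left, DEX was compared with mock by limma 3.58.1 under R 4.3.3, as a two-sided moderated test with a mean-variance trend and no covariate, with Benjamini-Hochberg adjustment over all 19883. With 2 residual degrees of freedom, SEs and p-values rest largely on spread pooled over probe sets. Nothing says how many plants stand behind an array, so p-values measure the spread between these samples, which may be partly technical. The number of arrays limits the precision. The test was tested on simulated data.

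The annotation lists 14016 probe sets, 13513 with 1 gene, 503 with several. The other 8730 are unlisted here. Of the 13513, 13484 matched a RefSeq locus (TAIR10.1). Where a gene had several probe sets, the brightest on average stood for it.

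The members and lists were chosen with earlier results of these data known. Named are the 4, all tested phosphate starvation genes, called genes of other lists and up to 3 uncalled ones of each with the largest change, the 5 nearest profiles and the 3 next falls. UGT78D2, AT5MAT, the tissue markers and the chromosome neighbours were named outside that rule, after their values were seen. Alternatives covered the filter, normalization, variance model, threshold, a replicate block, the gene length trend (loess, span 0.5) and leaving out each array. Promoter motifs had been planned, but promoter and protein sequences were not used here.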

Additional observations from a re-analysis of the deposited data

How the results depend on the processing

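Quantile normalization, equal array medians and removal of the gene length trend each moved the changes of the 4 phosphate-linked probe sets by less than the larger SD of their groups. With an array left out the change was -3.21 to -3.10 for 262369_at, -2.98 to -2.58 for 258856_at, -2.03 to -1.53 for AT5G20790 and -3.28 to -2.35 for AT2G04460; with 2 arrays per group that do not overlap, no such setting could turn a sign or move the mean by more than the SD of its pair. Calls over all probe sets, 49 higher and 40 lower, were 27 and 24 without an intensity trend, 80 higher with robust empirical Bayes, 107 and 81 at an adjusted p under 0.1, 438 and 237 with a replicate block, and 0 and 0 with an unmoderated variance. With 1 array dropped there were 112 to 1803 higher and 50 to 1388 lower, the highest counts without mock replicate 2. In such fits the lone array is assumed to vary like the other pair. The deviations of same-numbered arrays correlated at 0.108 across probe sets (not independent replicates), and with 2 pairs this does not show that the numbers pair the arrays.

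In the phosphate starvation list 0 genes were called in the settings that kept all 4 arrays, the replicate block included, and 0 to 2 lower with an array left out. Of its 19 genes, 11 changed sign in some setting, all with changes of at most 0.17 in size. The count of anthocyanin genes called lower was 1, and 0 with no filter, no intensity trend or an unmoderated variance, and 2 with the stricter filter, equal array medians, robust empirical Bayes, the replicate block or an adjusted p under 0.1. With an array left out it was 0 to 3. The highest of these counts came from the fit without mock replicate 2, which also called the most probe sets lower over all. The replicate block called 237 probe sets lower over all, against 40 in the main fit. Whether the anthocyanin counts in these fits exceed the share over all probe sets was not tested. In the sulfate list 0 genes were called in the settings that kept all 4 arrays. The change of SIR was -0.70 without mock replicate 2 and 0.071 without mock replicate 1. The causes were not tested.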

Other observations

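Few genes of other nutrients were measured. Of 20 listed genes of sulfate supply 3 were tested and 0 passed (limma; 0 at an unadjusted p under 0.05). Over all tested probe sets 0.246% were called higher, 0.201% lower, and 8.78% were at an unadjusted p under 0.05. At these shares no call is usual in so few genes, for nitrogen and iron as well. SIR, the sulfite reductase, was at 10.06 and 9.94 on the DEX arrays, against 10.70 and 9.93 on the mock arrays, a log2 change of -0.31 ± 0.27 (SE). APS3, an ATP sulfurylase, was at -0.24 ± 0.19. AT1G04770 (SDI2), whose transcript is known to build up without sulfur, was at 8.42 and 8.74 on the DEX arrays, against 8.22 and 8.30 on the mock arrays, a change of 0.32 ± 0.20. For nitrogen, 1 of 23 listed genes was tested, the nitrate transporter gene NRT2.5, at -0.11 ± 0.12. For iron, 1 of 23 was tested, the regulator PYE, at -0.20 ± 0.19. Neither passed (limma adjusted p = 0.865 and 0.84).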
